A study of Homo sapiens with 6 samples.

Results

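ATP-binding cassette (ABC) transporters were examined in LM3 cells, an established hepatocellular carcinoma (HCC) cell line, after stable knockdown of the zinc finger protein ZNF706. The members were taken by symbol alone, as the letters ABC followed by a subfamily letter from A to G and a number, and 43 of the 33007 genes in the deposited table had such a symbol. The series held 3 control samples and 3 samples labelled as ZNF706 knockdown, all given the genotype WT by the labels. Per the study's methods, knockdown used a pLKO.1 short hairpin RNA lentivirus with puromycin selection and the control cells carried a vector. The sources used here do not say which of the study's hairpins these samples carried, nor whether the samples came from separate cultures, so p-values measure only the spread between these samples, which may be technical. The control samples had 62684076, 64713764 and 63054445 counts in total and the knockdown samples 68548419, 65861994 and 69057423.

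ABC proteins use ATP hydrolysis to move substrates across membranes. In the liver they export bile acids, conjugated bilirubin, phospholipid, sterols and drugs, and in tumour cells several of them are known for multidrug resistance and for export of glutathione conjugates. Other members sit in mitochondria, lysosomes or peroxisomes, and the ABCE and ABCF proteins have no membrane part and act on ribosomes and translation.

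The targeted gene was examined first. ZNF706 had CPM (counts as a rate of the library, after TMM, a correction for library composition) of 51.9, 55.1 and 54.7 in control cells and 33.5, 30.8 and 32.8 in knockdown cells. The groups did not overlap, and the log2 fold change was -0.73 (SE 0.0505, adjusted p = 3.7e-05 by edgeR's quasi-likelihood test). The label of the cells was compared with marker genes. The epithelial keratin KRT18 had a mean of 265.8 FPKM (a level corrected for gene length and library size), whereas ALB, the most abundant of 13 hepatocyte genes, had a mean of 2.17 FPKM, so hepatocyte markers were low in these cells. The summed level of the 13 hepatocyte genes was 4.12, 9.16 and 10.9 FPKM in control cells and 4.58, 4.66 and 2.91 FPKM in knockdown cells. Control replicate 1 and knockdown replicate 3 stood apart from their groups, with ALB at 189, 899 and 882 counts in control cells and 587, 635 and 138 in knockdown cells, so the summed levels of the groups overlapped. Of the 12 tested, 12 had a lower sign in knockdown cells and 3 (SERPINA1, APOH and APOB) passed the test, a share of 25.0% where 22.8% of all tested genes passed. The leukocyte gene PTPRC reached at most 8 counts in any sample. Of 5 epithelial genes, 4 had a higher sign in knockdown cells, and the median log2 fold change was 0.59. None of them passed the test, with KRT19 at 0.83 (adjusted p = 0.054 by edgeR). Markers of other cell types went in both directions. CD68 (log2 fold change 0.64) was significantly higher, while CD14 had 0.69 and LYZ -1.71 without passing the test. PDGFRB (0.68) and COL1A1 (0.20) were significantly higher, while LUM had -1.26 and DCN -0.04 without passing. CDH5 (-0.70) was significantly lower, while PECAM1 had 0.15 without passing. The part of these marker shifts in the results for ABC genes was not tested, and in bulk RNA fewer cells of a kind and less RNA per cell cannot be told apart.

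The family ranged from abundant to undetected. Of the 43 members, 22 had a mean level of at least 1 FPKM over all samples and 9 of at least 10 FPKM. ABCF1, which takes part in translation initiation, was the most abundant at 49.5 ± 1.96 FPKM (SD, n = 6). ABCF2 followed at 29.5 ± 1.16 FPKM, and neither range overlapped that of the next gene. ABCE1, the ribosome recycling factor, had 19.5 ± 1.67 FPKM and ABCC2, the canalicular exporter of conjugates, 17.4 ± 0.406 FPKM. From ABCE1 through ABCC2, ABCG2, ABCB10 and ABCF3 to ABCC1, each gene's range over the 6 samples overlapped that of the next one named. These ranges pool both groups. ABCF3 had 12.22, 13.18 and 12.29 FPKM in control cells and 14.0, 13.82 and 14.57 in knockdown cells. ABCC1 was lower within each group, at 11.92, 11.31 and 12.03 in control cells and 12.53, 12.56 and 12.3 in knockdown cells. The other neighbours in this order were separate in a single group and overlapped in the other. ABCE1 lay wholly above ABCB10, ABCF3 and ABCC1. The 5 most abundant members made up 55.7% of the family's summed FPKM.

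**Figure D1:**
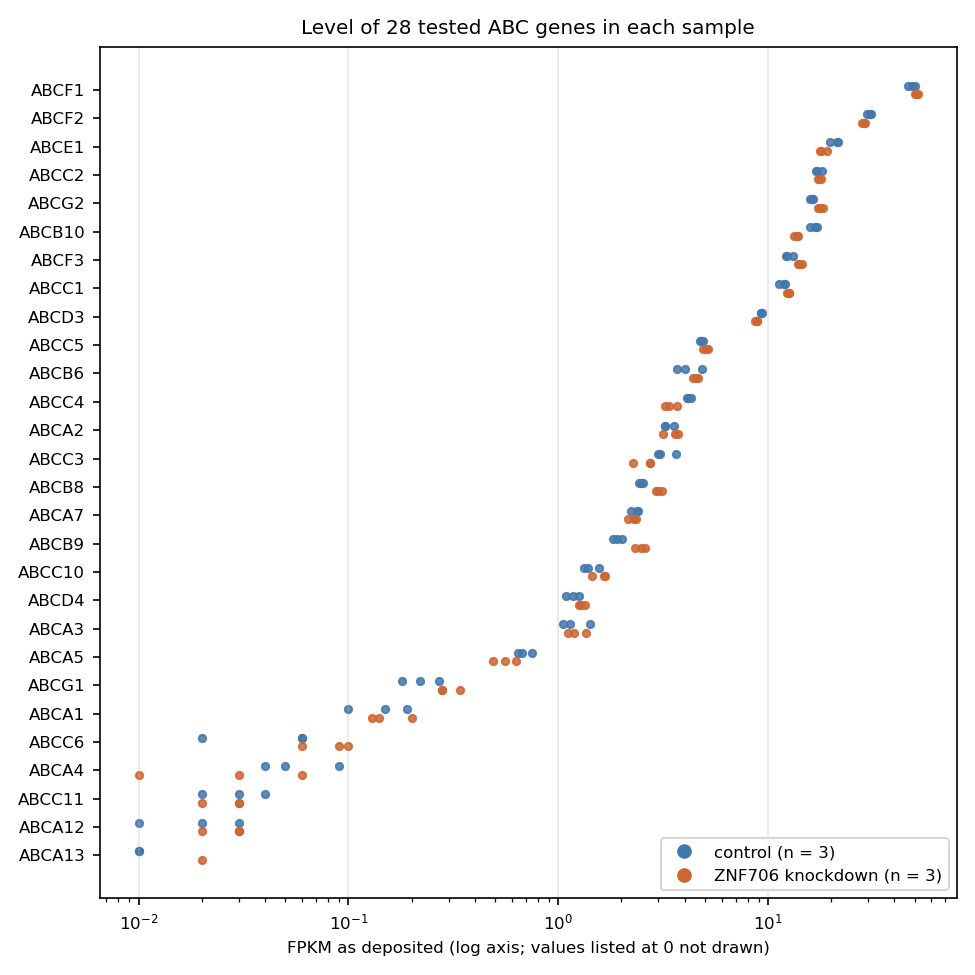
FPKM of 28 tested ABC genes on a log axis, 1 point per sample, with control samples in blue and knockdown samples in orange. ABCF1 stands highest at a mean of 49.5 FPKM, and genes such as ABCC6 and ABCA4 lie under 0.1 FPKM on average.

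Several transporters known from hepatocytes and drug resistance were near or below detection. ABCB11, the bile salt export pump, had 13, 0 and 4 counts in control cells and 0, 4 and 0 in knockdown cells. ABCB1, the P-glycoprotein of multidrug resistance, had 0, 9 and 10 counts in control cells and 4, 0 and 4 in knockdown cells. The phosphatidylcholine floppase ABCB4 had 7 counts in a single control sample and 0 elsewhere. ABCG5 and ABCG8 pair to export sterols. ABCG5 had at most 12 counts, and ABCG8 was listed at 0 in all control samples and had 9, 4 and 8 counts in knockdown cells, the one untested member whose groups did not overlap. In all, 13 members did not pass the filter on low counts, and the highest count among them was 13. These were ABCA6, ABCA8, ABCA10, ABCB1, ABCB4, ABCB5, ABCB11, ABCC8, ABCC9, ABCD2, ABCG4, ABCG5 and ABCG8, and their groups were not tested.

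The remaining 30 members were compared between knockdown and control samples in one fit over 18390 genes. At an adjusted p below 0.05, 4 members were higher (ABCB8 and ABCB9 among them) and 6 were lower (ABCB10, ABCC3, ABCC4, ABCD3, ABCE1 and ABCF2). Called members were 33.3% of those tested, while 22.8% of all tested genes were called, 10.4% as higher and 12.4% as lower. At a mean count of 50 or more, the shares were 10 of 25 members (40.0%) and 29.1% of all genes. CPM values of the groups did not overlap for 15 of 30 members, against 39.4% of all tested genes. The median log2 fold change was 0.04 over the members and 0.01 over all tested genes. With the study's stated thresholds, a p below 0.05 (taken as unadjusted) with a log2 fold change of 0.3 or more in either direction, 1 member was higher and 4 were lower, where 15.5% of all genes passed, 9.61% as higher and 5.88% as lower.

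The changes were small. The largest fall among called members in the fit as reported was that of ABCC3 and the largest rise that of ABCB9. Without control replicate 1, ABCC3 had a log2 fold change of -0.281, against -0.324 for both ABCC4 and ABCB10. Without knockdown replicate 3 it had -0.276, against -0.294 for ABCC4 and -0.327 for ABCB10. In the limma fit on log2(FPKM + 1) it had -0.234, against -0.256 for ABCB10. ABCB10, ABCC4, ABCE1 and ABCB9 stayed past the threshold in each of the 6 fits that left out 1 sample, and ABCB8, ABCC3, ABCD3 and ABCF2 each lost the call in at least 1 of them. Without control replicate 1, 2 members were higher and 4 lower, without knockdown replicate 2 the numbers were again 2 and 4, and without knockdown replicate 3 they were 3 and 5. Scaling by library size alone, without TMM, gave 6 higher and 4 lower members in place of 4 and 6, and 2742 higher and 1518 lower genes in place of 1906 and 2286.

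**Figure D2:**
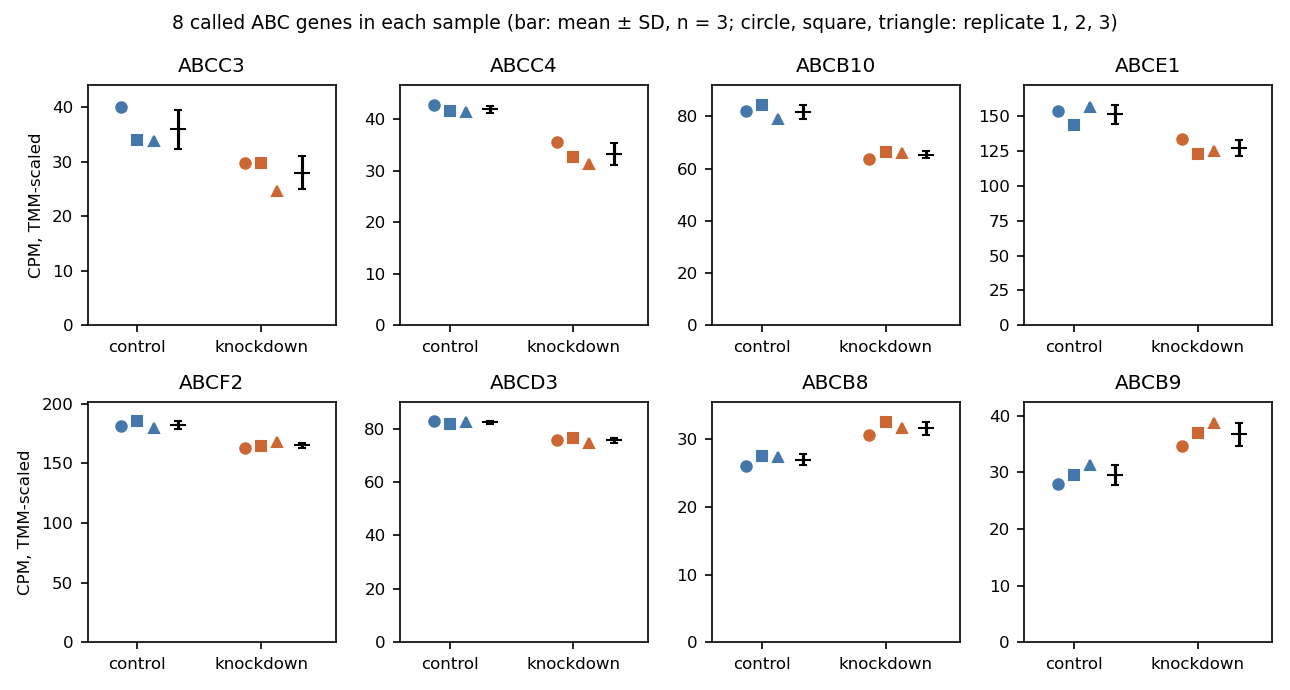
TMM-scaled CPM of 8 called ABC genes in each sample, on linear axes from 0, with the mean ± SD of 3 samples beside the points. In each of the 8 panels the control and knockdown points do not overlap, for ABCB10 with all control samples at 79.0 CPM or above and all knockdown samples at 66.5 CPM or below.

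The summed FPKM of the family was 242.3, 239.8 and 238.1 in control cells and 244.4, 242.8 and 244.9 in knockdown cells, means of 240.1 ± 2.09 and 244.0 ± 1.06 (SD, n = 3). The groups did not overlap, though by a narrow margin. The sum uses the authors' FPKM, which carry no TMM correction. The TMM factors were 0.988, 0.983 and 0.974 in control samples and 1.024, 1.019 and 1.014 in knockdown samples. Dividing the sums by these factors places every knockdown sum below every control sum, so the direction of this difference depends on the scaling.

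**Figure D3:**
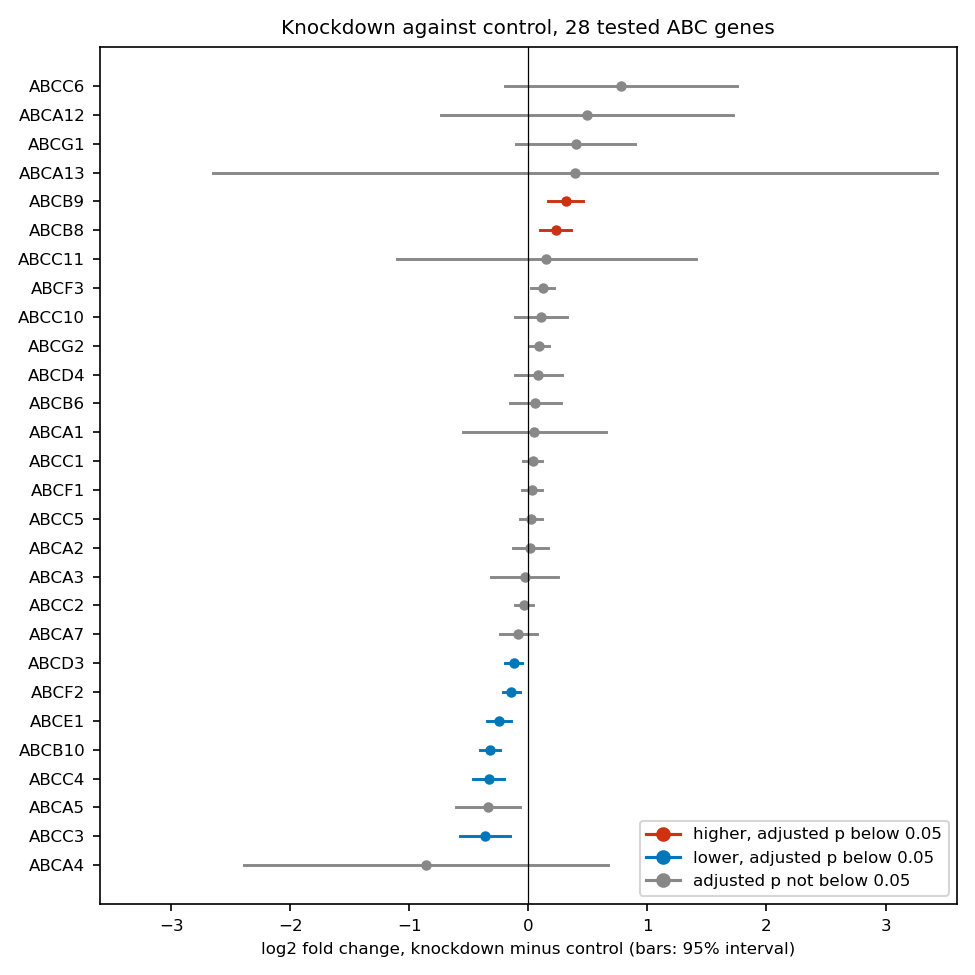
Log2 fold change, knockdown minus control, of 28 tested ABC genes with 95% intervals, in red for significantly higher, blue for significantly lower and grey for neither. The 8 called genes shown lie between -0.36 and 0.31, and the widest intervals belong to genes of few counts such as ABCA13.

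Multidrug resistance proteins of the ABCC subfamily export conjugates with glutathione, glucuronate or sulfate, and 2 of the 8 tested were significantly lower, and none was higher. This was 25.0% called, against 22.8% of all tested genes in either direction and 12.4% as lower. ABCC4 (MRP4; ENSG00000125257, chr13:95019835-95301451, minus strand) exports cyclic nucleotides, prostanoids and nucleotide analogues. Its CPM was 42.8, 41.7 and 41.4 in control cells and 35.7, 32.7 and 31.4 in knockdown cells. Every knockdown sample lay below every control sample, and ABCC4 fell by 20.7% (log2 fold change -0.33, SE 0.0574, adjusted p = 0.00286). ABCC3 (MRP3; ENSG00000108846, chr17:50634777-50692253, plus strand) exports glucuronides and bile acids across the basolateral membrane. Its CPM was 40.1, 33.9 and 33.9 in control cells and 29.7, 29.7 and 24.6 in knockdown cells. Control replicate 1 stood above and knockdown replicate 3 below the other samples of their groups, and the unscaled counts overlapped at 2079 in a control sample and 2080 in a knockdown sample. The log2 fold change was -0.36 (SE 0.0932, adjusted p = 0.0202), and the adjusted p was 0.0676 without control replicate 1 and 0.0554 without knockdown replicate 3. With all samples kept, the call was also lost without a filter (adjusted p = 0.0702) and in both limma fits on log2 FPKM (0.0596 in each).

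The more abundant conjugate pumps did not pass the test. ABCC2 (MRP2) had 162.1, 156.0 and 155.4 CPM in control cells and 153.3, 156.5 and 151.7 CPM in knockdown cells. These groups overlapped, and the 95% interval of the log2 fold change ran from -0.11 to 0.04, with a sign that turned positive under scaling by library size alone. ABCC1 (MRP1), the leukotriene C4 and glutathione conjugate pump, had 103.8, 99.4 and 106.7 CPM in control cells and 106.4, 106.4 and 104.8 CPM in knockdown cells. Its groups overlapped too, with an interval from -0.05 to 0.12. ABCC5 (0.02) and ABCC10 (0.11) had log2 fold changes with intervals that included 0, and ABCC10 shares its place with DLK2 on the opposite strand, which had 68.8% as many counts. ABCC6, mutated in pseudoxanthoma elasticum, was scarce, with 33, 14 and 33 counts in control cells and 59, 56 and 38 in knockdown cells, and its log2 fold change of 0.78 did not pass the test (SE 0.436, adjusted p = 0.245). Reads of ABCC6 can be shared with its pseudogene copies, so its level is uncertain. Values of ABCC11 did not exceed 21 counts in any sample.

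ABCG2, the breast cancer resistance protein and an exporter of urate and many drugs, was the most abundant multidrug pump outside the ABCC subfamily. Its CPM was 102.3, 106.8 and 105.9 in control cells and 115.2, 108.9 and 111.7 in knockdown cells. The groups did not overlap, but the difference of 0.09 on the log2 scale (95% interval 0.01 to 0.18) did not pass the test after adjustment (adjusted p = 0.102). Scaling by library size alone gave an adjusted p of 0.0184, and both fits on log2 FPKM also placed ABCG2 past the threshold as higher.

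Mitochondrial members of the ABCB subfamily moved in both directions. ABCB10 (ENSG00000135776, chr1:229516582-229558707, minus strand) lies in the inner mitochondrial membrane and supports heme synthesis. Its CPM was 82.0, 84.3 and 79.0 in control cells and 63.9, 66.5 and 65.9 in knockdown cells. It fell by 20.0% (log2 fold change -0.32, SE 0.0384, adjusted p = 0.000453), the lowest adjusted p of the family. ABCB8 (ENSG00000197150, chr7:151028422-151047782, plus strand), a mitochondrial protein linked to iron export, had 26.1, 27.5 and 27.3 CPM in control cells and 30.7, 32.6 and 31.6 CPM in knockdown cells. Its groups were separate, with a log2 fold change of 0.23 (SE 0.0587, adjusted p = 0.0192), which missed the threshold without control replicate 1 (adjusted p = 0.0649) and without knockdown replicate 2 (0.0786). ABCB6, a porphyrin transporter, had overlapping groups and a log2 fold change of 0.06 (SE 0.0971). A gene on the same strand overlaps ABCB6 and held 85.1% as many counts, so its level is uncertain.

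The list of mitochondrial heme and iron-sulfur genes had 18 tested genes, none of them significantly higher and 1 significantly lower (5.56% called, against 22.8% of all tested genes), and their median was 0.02 on the log2 scale. That gene was ISCA1, a scaffold in the late steps of iron-sulfur assembly, at 26.2 ± 0.551 FPKM in control cells and 22.6 ± 0.209 FPKM in knockdown cells (SD, n = 3; log2 fold change -0.26, adjusted p = 0.000593).

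The 250 bases before the RefSeq start are shown for ABCB10 and ABCC4, the most significant falls, and for ABCB8, a rise within the same mitochondrial group, so that the sequences before genes of both directions can be compared. Promoter windows of RefSeq (GRCh38.p14) were matched by symbol for 33 of the 43 members, 7 of them called. Capitals mark matches on either strand to the GC box GGGCGG, the CCAAT box CCAAT, the E-box CACGTG, the antioxidant response element core TGACNNNGC, which NFE2L2 is known to bind, and the ATF4-type core TGATGNAA, and matches may overlap. Each stretch reads 5′ to 3′ on the strand of its gene. They lie at chr1:229558708-229558957 (minus strand), chr13:95301452-95301701 (minus strand) and chr7:151028200-151028421 (plus strand), where the last ends before the ABCB8 gene of the deposited table begins and so holds 222 bases.
ABCB10: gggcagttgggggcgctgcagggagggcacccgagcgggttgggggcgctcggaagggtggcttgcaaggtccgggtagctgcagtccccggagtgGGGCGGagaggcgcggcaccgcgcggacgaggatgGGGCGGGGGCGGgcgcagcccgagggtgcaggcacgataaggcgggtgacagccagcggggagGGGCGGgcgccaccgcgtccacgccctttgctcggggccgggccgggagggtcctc
ABCC4: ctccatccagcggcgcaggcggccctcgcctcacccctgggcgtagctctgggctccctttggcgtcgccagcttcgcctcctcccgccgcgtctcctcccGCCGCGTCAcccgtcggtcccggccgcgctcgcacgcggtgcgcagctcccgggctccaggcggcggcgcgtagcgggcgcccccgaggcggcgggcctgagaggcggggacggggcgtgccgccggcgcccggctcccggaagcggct
ABCB8: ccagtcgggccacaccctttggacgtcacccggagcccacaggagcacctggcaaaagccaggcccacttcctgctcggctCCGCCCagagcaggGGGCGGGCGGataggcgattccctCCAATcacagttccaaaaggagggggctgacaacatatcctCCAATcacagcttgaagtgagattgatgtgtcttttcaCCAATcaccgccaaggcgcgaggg

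In these windows ABCB10 carries 4 GC boxes, a pair of them fused in the second capital run. ABCB8 carries GC boxes and 3 CCAAT boxes, and ABCC4 carries a single match, to the antioxidant response element core on the other strand. Counted per gene, with any of its windows holding the letters, 72.2% of the 11360 tested genes with a window held a GC box, 41.2% a CCAAT box, 15.8% the antioxidant response element core, 11.0% the E-box and 2.37% the ATF4-type core. Of the 24 tested members with a window, counted the same way, 18 held a GC box, 6 a CCAAT box, 8 the antioxidant response element core, 7 the E-box and 1 the ATF4-type core. Per window, over all 35116 windows of the RefSeq table, the shares were 42.6%, 32.0%, 10.9%, 6.34% and 3.14% in the same order. The 7 called members with a window held them in 5, 3, 2, 1 and 0 cases. Such matches are descriptions of letters and were not set against any binding data.

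ABCB9 (TAPL; ENSG00000150967, chr12:122920951-122975205, minus strand), a lysosomal peptide transporter, rose the most of the called members. Its CPM was 27.9, 29.6 and 31.4 in control cells and 34.6, 37.0 and 38.6 in knockdown cells. The groups were separate, and the log2 fold change was 0.31 (SE 0.0657, adjusted p = 0.00789), a 1.24-fold rise. OGFOD2 lies on the opposite strand over part of ABCB9 and had 47.8% as many counts and a log2 fold change of 0.27 (adjusted p = 0.0564), and since the handling of strand in counting is not given in the sources used here, reads of the overlap cannot be told apart.

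TAP1 and TAP2, the relatives of ABCB9 that carry peptides into the endoplasmic reticulum for MHC class I, went the other way. TAP1 was at 13.4 ± 1.09 FPKM in control cells and 10.6 ± 0.335 FPKM in knockdown cells (log2 fold change -0.39, SE 0.0566, adjusted p = 0.00113). TAP2 was at 22.1 ± 0.0964 and 20.3 ± 0.721 FPKM (log2 fold change -0.17, SE 0.0359, adjusted p = 0.00878). CFTR, the third ABC protein with another symbol, had at most 4 counts and was not tested.

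Ratios of related genes within a sample do not depend on library scaling. The pairs were chosen after the values were seen, so the ratios are a description. The ratio of ABCB9 to TAP1 by FPKM was 0.139, 0.131 and 0.161 in control cells and 0.224, 0.239 and 0.236 in knockdown cells. For ABCB8 to ABCB10 it was 0.145, 0.149 and 0.157 against 0.219, 0.223 and 0.218. The knockdown samples thus lay above all control samples in both pairs. ABCC1 to ABCC4 gave 2.77, 2.72 and 2.94 against 3.4, 3.72 and 3.81.

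**Figure D4:**
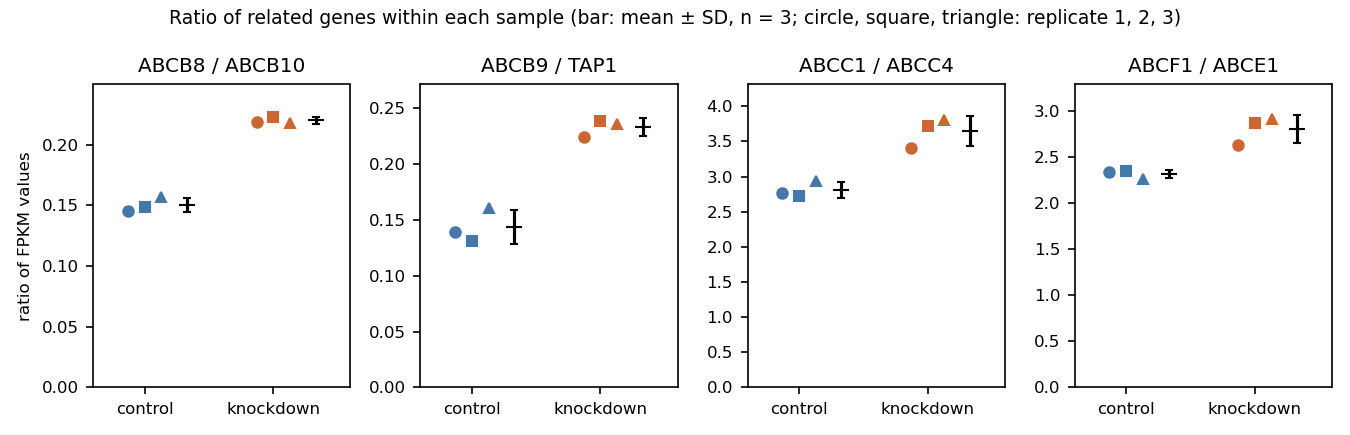
Ratio of FPKM values of 4 pairs of related ABC genes within each sample, on linear axes from 0, with the mean ± SD of 3 samples beside the points. The knockdown samples lie above the control samples in each panel, for ABCF1 over ABCE1 at 2.63, 2.86 and 2.91 against 2.33, 2.34 and 2.26.

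Peroxisomal ABCD transporters bring acyl-CoA into the organelle for beta-oxidation. ABCD3 (PMP70; ENSG00000117528, chr1:94418389-94518666, plus strand), which carries branched-chain and dicarboxylic substrates, had 82.8, 81.7 and 82.6 CPM in control cells and 75.7, 76.3 and 74.7 CPM in knockdown cells. Its log2 fold change was -0.12 (SE 0.0327, adjusted p = 0.0224) with TMM scaling. The unscaled counts of 5122, 5190 and 5069 in control cells and 5307, 5117 and 5226 in knockdown cells overlapped. The call was lost under scaling by library size alone and in 5 of the 6 fits that left out 1 sample, with adjusted p up to 0.0706. ABCD4, which exports cobalamin from lysosomes, had a log2 fold change of 0.08 with overlapping groups.

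Of 17 tested genes of peroxisomal import and beta-oxidation, with lysosomal cobalamin partners of ABCD4 among them, 5 were significantly higher and 4 significantly lower. This was 52.9% called, against 22.8% of all tested genes and 29.1% of those with a mean count of 50 or more. All genes of the list except ACOX2 had such a mean count, and the list's median was -0.02 on the log2 scale. EHHADH, the bifunctional enzyme of beta-oxidation, was at 1.00 ± 0.117 FPKM in control cells and 1.76 ± 0.295 FPKM in knockdown cells (log2 fold change 0.76, adjusted p = 0.0056). MMACHC, which processes cobalamin in the cytosol, was higher (log2 fold change 0.38, adjusted p = 0.0019), while LMBRD1, the lysosomal partner of ABCD4, was lower (-0.34, adjusted p = 0.00491). The peroxin PEX16, which takes part in membrane protein import with PEX3, was higher at 0.32 (adjusted p = 0.0243).

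ABCE1 and the ABCF proteins act in translation. ABCE1 (ENSG00000164163, chr4:145098288-145129524, plus strand), which splits ribosomes after termination, had 154.0, 143.5 and 156.6 CPM in control cells and 133.9, 123.3 and 125.3 CPM in knockdown cells. It fell by 15.8% without overlap of the scaled values (log2 fold change -0.25, SE 0.0459, adjusted p = 0.00409), while the unscaled counts of 9534, 9124 and 9612 in control cells and 9388, 8274 and 8766 in knockdown cells overlapped. OTUD4, on the opposite strand over part of ABCE1, had 54.9% as many counts and a log2 fold change of -0.22 (adjusted p = 0.00605), and reads of the overlap cannot be told apart without strand. ABCF2 (ENSG00000033050, chr7:151211484-151227205, minus strand), whose role in human cells is less known, had 181.6, 185.5 and 179.3 CPM in control cells and 162.7, 164.7 and 167.5 CPM in knockdown cells. Its log2 fold change was -0.14 (SE 0.0326, adjusted p = 0.0117), but the unscaled counts overlapped and the adjusted p was 0.0811 under scaling by library size alone. ABCF1 overlapped between the groups, with a log2 fold change of 0.03 (95% interval -0.05 to 0.11) at 258.0, 240.8 and 254.8 CPM in control cells and 253.4, 253.9 and 261.9 CPM in knockdown cells. ABCF3, a relative of the yeast Gcn2 activator Gcn20, did not overlap between groups (73.2, 79.7 and 75.0 against 81.8, 80.6 and 85.3 CPM), yet its log2 fold change of 0.12 did not pass the test (adjusted p = 0.0706). It passed as higher under scaling by library size alone (adjusted p = 0.0151) and with a mean count of at least 50 (0.0496). Both limma fits on log2 FPKM (0.0223 and 0.0219) and the fit without control replicate 2 (0.0484) also placed ABCF3 past the threshold.

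The list of ribosome recycling and stress genes contained the largest share of called genes among the partner lists of more than 2 tested genes, with 3 of 15 significantly higher, 8 significantly lower and a median of -0.15 on the log2 scale. This was 73.3% called, against 22.8% of all tested genes and 29.1% of those with a mean count of 50 or more. Each gene of the list was abundant, with PELO the lowest at a mean count of 2750. EIF5, the GTPase activator of initiation, was at 41.3 ± 1.00 FPKM in control cells and 36.0 ± 1.14 FPKM in knockdown cells (log2 fold change -0.25, adjusted p = 0.00135). PELO and HBS1L, which release stalled ribosomes together with ABCE1, had log2 fold changes of -0.24 (adjusted p = 0.0265) and -0.20 (adjusted p = 0.00776). EIF2D, which acts on initiator tRNA and on recycling of the small subunit, was higher at 0.26 (adjusted p = 0.00219).

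None of the 8 tested ABCA genes passed the test, where 22.8% of all tested genes did, and neither did ABCG1. ABCA4, ABCA12 and ABCA13 were near the floor, with mean counts of 31.0, 16.7 and 11.5. Their log2 fold changes had SEs of 0.684, 0.547 and 1.36, so a change in them could hardly be called. ABCA1, the cholesterol efflux pump that builds high-density lipoprotein, was scarce, with 154, 123 and 84 counts in control cells and 118, 171 and 124 in knockdown cells. The groups overlapped, and the 95% interval of its log2 fold change ran from -0.55 to 0.65. ABCG1, which passes cholesterol to high-density lipoprotein, had 79, 123 and 96 counts in control cells and 137, 130 and 168 in knockdown cells. The groups were separate, but the log2 fold change of 0.40 had an SE of 0.223 (adjusted p = 0.246). ABCA5, a lysosomal and endosomal member, had 9.76, 10.3 and 11.6 CPM in control cells and 8.33, 7.31 and 9.36 CPM in knockdown cells, with a log2 fold change of -0.34 (adjusted p = 0.0676) that passed the study's thresholds. ABCA2, ABCA3 and ABCA7 had overlapping groups and log2 fold changes of 0.02, -0.03 and -0.08.

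Liver X receptors switch on ABCA1 and ABCG1 in response to oxysterols. Of 11 tested genes listed here as targets outside the ABC family, 2 were significantly higher and 1 significantly lower. This share of 27.3% was near the 22.8% of all tested genes. NR1H3, which encodes LXR alpha and is itself such a target, was at 4.41 ± 0.105 FPKM in control cells and 5.68 ± 0.185 FPKM in knockdown cells (log2 fold change 0.31, adjusted p = 0.00612). FASN, the fatty acid synthase, was higher at 0.18 (adjusted p = 0.00243), and MARCHF6, a ubiquitin ligase of sterol synthesis enzymes, was lower at -0.11 (adjusted p = 0.0497). Whether MARCHF6, the only lower gene called on this list, is a target of these receptors was not checked. The cholesterol list had 10 tested genes, 2 significantly higher and 1 significantly lower (30.0% called). The lysosomal lipase LIPA was higher at 0.44 (adjusted p = 0.000363), as was the lipoprotein receptor SCARB1 at 0.11 (adjusted p = 0.0304).

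Among 19 tested receptors and factors known to control ABC genes, 2 were significantly higher and 1 significantly lower (15.8% called, against 22.8% of all tested genes). These were NR1H3, the lysosomal regulator TFEB (log2 fold change 0.61, adjusted p = 0.00765), and the aryl hydrocarbon receptor AHR (-0.27, adjusted p = 0.0128), which is known to induce ABCG2. NFE2L2, which is known to induce several ABCC genes, had 19.9 ± 0.923 FPKM in control cells and 18.9 ± 0.499 FPKM in knockdown cells and did not pass the test (log2 fold change -0.12, adjusted p = 0.0784). Of 11 tested carriers that take up or move bile acids, drugs and metals, none was significantly higher and 1 was lower (9.09% called), the organic anion transporter SLCO4A1 (log2 fold change -0.47, adjusted p = 0.000858).

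The alternatives moved several called members across the threshold, and some of them in size. Over the alternatives that kept all samples, the log2 fold change of ABCD3 went as far as -0.0681 (-0.124 as reported), that of ABCF2 as far as -0.089 (-0.143) and that of ABCC3 as far as -0.234 (-0.362). ABCB10, ABCC4 and ABCB9 passed under every tool, scaling, filter and call rule that was run. ABCE1 and ABCB8 passed under all of these except the study's fold threshold, though ABCB8 lost the call in some fits that left out 1 sample. ABCF2 lost the call without knockdown replicate 2 (adjusted p = 0.056). Over the 9 alternatives that kept all samples, the log2 fold change of ABCB10 ranged from -0.325 to -0.256.

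**Figure D5:**
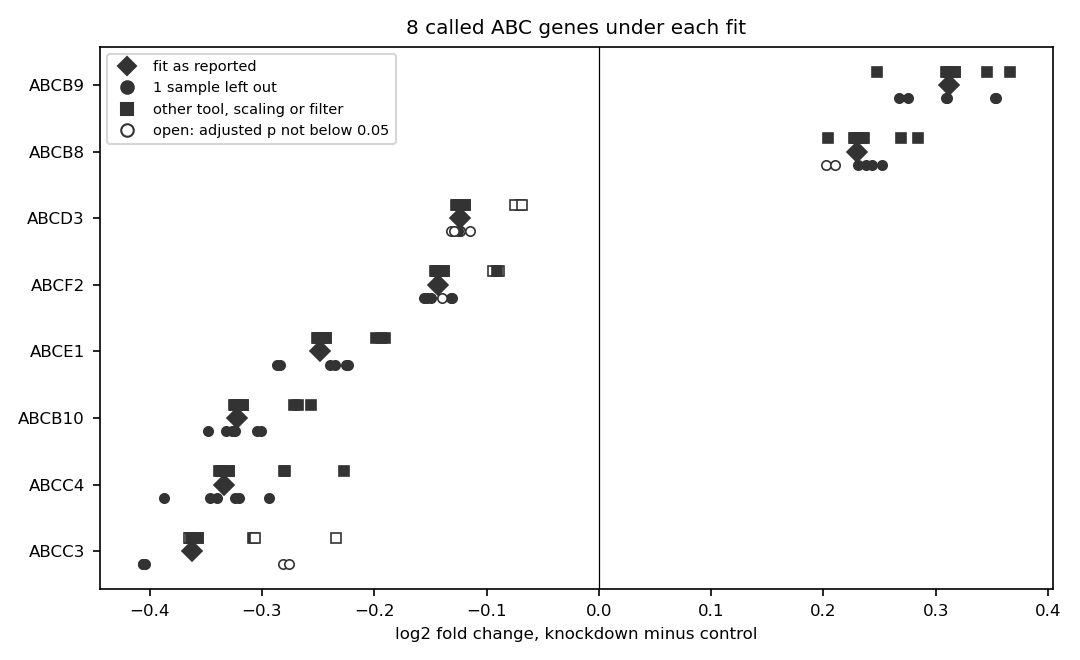
Log2 fold change, knockdown minus control, of 8 called ABC genes in the fit as reported (diamonds), with 1 sample left out (circles) and with another tool, scaling or filter (squares), filled where the adjusted p was below 0.05 and open where it was not. No gene changes sign, and open symbols occur for ABCB8, ABCC3, ABCD3 and ABCF2.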

How the data were processed

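RNA-seq of LM3 cells was analysed in 3 control and 3 ZNF706 knockdown samples. The authors trimmed reads with cutadapt 1.9 (per the submitters' notes), mapped them with HISAT2 to GRCh38 and deposited raw counts and FPKM per gene. The counting program, strand handling and annotation release are not given in the sources used here. The deposited counts held the value 4 more often than 3 (6594 against 4454 values), so low counts may not be single reads. Deposited FPKM correct for gene length and library size.

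After filterByExpr and TMM scaling, genes were tested by glmQLFTest of edgeR 4.0.16 (R 4.3.3), with a group term and Benjamini-Hochberg adjustment over 18390 genes. SE is the absolute log2 fold change over the square root of F, and 95% intervals used 9.72 degrees of freedom. The alternatives were DESeq2 1.42.0, other scalings and filters, limma 3.58.1 on log2 FPKM, a replicate term and leaving out each sample. The table's columns of fold changes and p-values from the authors' own comparison were not used.

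Members and lists were chosen with earlier results of these data known. Named genes are ZNF706, the called members, the 5 most abundant members, known efflux and lipid pumps, and up to 4 called genes per partner list by absolute log2 fold change. Other genes, among them ABCA5, ABCF3, overlapping genes and NFE2L2, were added after their values were seen. A few genes that this rule names are not reported in the text or plots, while counts over members and lists include them.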

Additional observations from a re-analysis of the deposited data

How the results depend on the processing

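ZNF706 and the called members kept their direction in all alternatives run. Against 4 higher and 6 lower members as reported, DESeq2 and DESeq2's size factors each gave 4 and 6, no filter 3 and 5, a mean count of at least 50 gave 5 and 6, and limma on log2(FPKM + 0.1) gave 6 higher and 3 lower. The study's thresholds gave 1 higher member, 7 lower partner genes (19 as reported) and 1081 lower genes in all. Library size alone gave 20 higher partner genes (13 as reported) and 1518 lower genes, limma on log2(FPKM + 1) also gave 20 higher partner genes, and without a filter 1253 genes were higher in place of 1906. The log2 fold change of ABCC2 turned from -0.04 to 0.0163 with library size alone and to 0.0113 and 0.0107 in the limma fits with 0.1 and 1 added. The cause was not tested.

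Leaving out 1 sample gave 2 to 5 higher and 4 to 6 lower members, with 2 higher without control replicate 1 and without knockdown replicate 2, and 1148 to 1485 higher and 1500 to 1939 lower genes, with the lowest of both without knockdown replicate 2. Fewer samples were then tested. ABCF1 ranged from -0.00182 (without control replicate 2) to 0.0451 and ABCA1 from -0.159 (without knockdown replicate 2; -0.146 without control replicate 3) to 0.272.

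With the replicate number as a block, 4 members were higher and 7 lower, ABCA5 being added (adjusted p = 0.045), and 1967 genes were higher and 2394 lower. Deviations of samples that share a number correlated at 0.0344, -0.0363 and -0.0156, and not every sample correlated best with its own number. Deviations from means of 3 samples cannot decide whether these samples were handled together, and the sources used here do not say.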

Other observations

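Genes whose symbols start with ABC but fall outside the family rule were mostly pseudogenes near the floor. ABCC6P1, a copy of part of ABCC6, had 10, 27 and 17 counts in control cells and 2, 5 and 8 in knockdown cells, with a log2 fold change of -1.96 that did not pass the test (edgeR, adjusted p = 0.0916), whereas ABCC6 itself had the opposite sign. ABCA11P had 90, 114 and 132 counts in control cells and 225, 65 and 218 in knockdown cells, so knockdown replicate 2 lay below every control sample while the other two lay above. The readthrough gene ABCF2-H2BE1, which shares exons with ABCF2, had 20, 21 and 10 counts in control cells and 11, 87 and 139 in knockdown cells. Its rise was limited to knockdown replicates 2 and 3 and did not pass the test (log2 fold change 2.07, edgeR, adjusted p = 0.0723). The ABCB10 pseudogenes reached at most 15 counts in a sample, against 4458 or more for ABCB10.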
